A study of Mus musculus with 6 samples.

Results

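The genes described here are the heat shock proteins and their co-chaperones in cultured stromal-vascular cells that received a Prdm16 retrovirus or a control retrovirus (puro). Members were the rows of the count table with a symbol of the Dnaja, Dnajb, Dnajc, Hspa, Hspb, Hsp90, Bag or Cct families, together with Hspd1, Hspe1, Hsph1, Hsf1 and Hsf2, and without the stress chaperones Hspa5 and Hsp90b1 of the endoplasmic reticulum (ER). They were 87 of 24197 genes, chosen by name and not by their values, though with earlier results of these data known. Both groups were cells of inguinal fat of C57BL/6 mice, the subcutaneous depot of the groin, grown in standard medium, and each group had 3 libraries of polyadenylated RNA. The labels do not give the promoter of the retrovirus, the age or sex of the mice or whether libraries came from separate cultures, so p-values reflect library-to-library spread alone, part or all of which may be technical. Values are whole-number counts, given below as CPM (counts scaled to library size). Where levels of different genes are set side by side, TPM is given, also scaled to the joined length of a gene's annotated exons. A gene was called where its adjusted p was under 0.05 in edgeR's quasi-likelihood test (two-sided, Benjamini-Hochberg over 13805 tested genes), and log2 fold changes are Prdm16 over puro.

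The chaperone network works as a relay. DNAJ proteins carry unfolded clients to HSP70 and trigger its ATPase, BAG and HSP110 proteins make HSP70 let go of its nucleotide and client, HSP90 finishes the folding of kinases and receptors, small heat shock proteins hold clients back from aggregation, and the CCT chaperonin folds actin and tubulin in a closed ring. HSF1 switches on the inducible members through heat shock elements, which are alternating GAA and TTC cores in promoters. PRDM16 is a zinc-finger coregulator known for driving brown and beige fat identity, and in brown fat HSF1 is also known to act beside thermogenic regulators.

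The libraries held between 28169059 and 35798201 counts each, all from 1 sequencing lane by their labels, and a floor of 3 counts corresponded to between 0.0852 and 0.104 CPM. Prdm16 itself averaged 2656 ± 146 CPM in Prdm16 libraries and 0.609 ± 0.148 CPM in puro libraries (SD, n = 3 each), as the labels say. The stromal marker Pdgfra was present in every library, while of 7 stromal progenitor markers 5, among them Col1a1, fell in Prdm16 libraries and 1, Ly6a, rose (log2 fold change 1.39 ± 0.04 SE, adjusted p = 4.05e-11). The list summed to 1476 to 1576 CPM in Prdm16 libraries and 2696 to 3166 CPM in puro libraries. All 8 cell cycle markers rose, with a sum of 3717 to 3796 CPM in Prdm16 libraries and 1885 to 1925 CPM in puro libraries. Of 7 mammary epithelium markers, 4 were tested and rose, with a sum of 21.9 to 23.8 CPM in Prdm16 libraries and 0.677 to 0.983 CPM in puro libraries, while the keratins Krt8, Krt14 and Krt5 had at most 3 counts in a library. The 5 adipocyte markers summed to 5.68 to 6.47 CPM in Prdm16 libraries and 0.323 to 0.596 CPM in puro libraries. Of these Adipoq and Cidec were tested and rose, while Plin1, Lep and Retn were not tested and had at most 6 counts in a library. The endothelial list of 6 genes summed to 9.06 to 11.9 CPM in Prdm16 libraries and 1.67 to 1.83 CPM in puro libraries, with its defining marker Cdh5 at 0 in all libraries. Tek made up nearly all of that difference, at 10.2 ± 1.45 CPM in Prdm16 libraries and 1.19 ± 0.134 CPM in puro libraries (SD, n = 3 each), and Kdr, the other tested gene of the list, was not called (−0.13 on the log2 scale). The 7 macrophage markers summed to 4.73 to 4.97 CPM in Prdm16 libraries and 4.999 to 6.34 CPM in puro libraries. Most of that sum was Cd68, which was not called (log2 fold change 0.26 ± 0.11 SE, adjusted p = 0.0521). Lyz2, the other tested gene of that list, fell (log2 fold change −5.41 ± 0.42 SE, adjusted p = 3.94e-07). It had 0, 2 and 1 counts in the Prdm16 libraries, against 42, 53 and 51 in the puro libraries. Csf1r was not tested and had 9 counts over the Prdm16 libraries and 31 over the puro libraries. Emr1 was at 0 in all libraries, and the 5 lymphocyte markers summed to at most 0.207 CPM. The part of these markers in the results below was not tested, and in bulk libraries fewer cells of a type and less RNA per cell cannot be told apart.

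Among the 70 members with a promoter window, the longest run of heat shock element cores lay between Hspd1 and Hspe1, 2 genes that start head to head. The starts used here lie 215 bases apart. A second Hspd1 start is also listed, in the window chr1:55088194-55088493, past the Hspe1 start, and from it the 2 genes overlap. The stretch between the starts used is given here with promoter sequence of Hspa1a, Hspa1b, Hspb1, Dnaja4, Dnajb6 and Hsph1. Of these genes, Hspa1a and Dnajb6 were not called. Sequences are from RefSeq (GRCm38.p6), each read 5′ to 3′ along the gene, and capitals mark the GAA and TTC cores that lie 2 bases apart, with the bases between them.
Hspd1 and Hspe1, the whole stretch between both starts, chr1:55087933-55088147, plus strand: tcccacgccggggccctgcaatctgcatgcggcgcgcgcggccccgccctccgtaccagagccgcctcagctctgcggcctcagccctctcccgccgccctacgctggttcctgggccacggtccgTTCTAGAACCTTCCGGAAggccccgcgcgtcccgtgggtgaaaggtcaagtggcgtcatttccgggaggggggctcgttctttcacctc
Hspa1a, chr17:34972157-34972276, minus strand, ending at the base before the start: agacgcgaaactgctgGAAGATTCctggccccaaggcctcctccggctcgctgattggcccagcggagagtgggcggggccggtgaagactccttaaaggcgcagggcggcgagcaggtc
Hspa1b, chr17:34959239-34959358, minus strand, ending at the base before the start: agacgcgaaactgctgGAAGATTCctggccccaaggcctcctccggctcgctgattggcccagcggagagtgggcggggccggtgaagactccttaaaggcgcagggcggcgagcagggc
Hspb1, chr5:135887789-135887839, plus strand, upstream of the start: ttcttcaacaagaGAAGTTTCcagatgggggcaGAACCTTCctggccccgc
Dnaja4, chr9:54699459-54699519, plus strand, upstream of the start: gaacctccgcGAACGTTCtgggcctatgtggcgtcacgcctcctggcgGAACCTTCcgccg
Dnajb6, chr5:29735838-29735878, plus strand, upstream of the start: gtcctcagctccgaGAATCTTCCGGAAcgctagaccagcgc
Hsph1, chr5:149636280-149636305, minus strand, just after the start: gcagaTTCTGGAAAGTTCtcctcagt
The shared Hspd1 and Hspe1 stretch held a run of 4 alternating cores, Dnajb6 and Hsph1 held 3 in a row, and the stretches of Hspa1a, Hspa1b, Hspb1 and Dnaja4 held pairs of cores. Another Dnaja4 start is also listed, in the window chr9:54699033-54699332. That window holds no pair of cores, and the printed Dnaja4 stretch lies after that start.

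A run of 3 cores was searched as GAANNTTCNNGAA or TTCNNGAANNTTC, which covers both strands, in windows from 250 bases before to 50 after each start. It stood in 4 of the 70 members with a window in the table (5.71%), namely Hspd1, Hspe1, Dnajb6 and Hsph1, and in 0.662% of all 27025 genes with one. Members without a window, among them Hsf1, Hspa8, Hspa9, Hsp90aa1 and Hsp90ab1, were not searched. The pair of cores, GAANNTTC or TTCNNGAA, each its own reverse complement and each contained in a run of 3, was searched after the data had been seen. It stood in 21 of the 70 members (30%) and in 17% of all genes. Of the 18 tested members with a pair, 6 rose, 8 fell and 4 were not called, and of the 41 tested members with a window but no pair, 13 rose, 14 fell and 14 were not called. The members with a pair lay near the background of all 1423 tested genes with one, since 33.3% of these members rose and 44.4% fell, beside 35.1% and 41% of those genes. A match describes letters in a window and is not evidence of binding, and its absence says only that these letters are not there.

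Of the 87 members, 75 passed the filter on low counts and were tested. The other 12 were Cct6b, Cct8l1, Dnajb13, Dnajb3, Dnajb7, Dnajb8, Hspb3, Hspb7, Hspb9, Dnajc5b, Dnajc5g and Dnajc6, of which Dnajb3, Dnajb8, Hspb3 and Dnajc5g had no count in any library, and the largest sum over a group was 30 counts, for Cct6b in puro libraries. Among tested members 53 were called (70.7%), beside 75.6% of all tested genes. Of the tested members 24 rose (32%), beside 37.5% of all genes, and 29 fell (38.7%), beside 38.0% of all genes, so the members' shares lay near the background. Each count by compartment below is to be read beside these shares of all genes, and no test between compartments was run. The groups did not overlap in CPM for 56 members (74.7%), beside 77.6% of all genes. Called changes of at least 1 on the log2 scale were seen in 7 members (9.33%), beside 21.8% of all genes. The median log2 fold change of the tested members was −0.04, beside −0.01 over all genes, and the median size of change was 0.27, beside 0.38 over all genes. Their median level was 62.7 CPM, beside 32.6 CPM over all genes. Together the members took 9708 to 10011 CPM in Prdm16 libraries and 9626 to 9885 CPM in puro libraries, a ratio of 1.01, so that decreases in some members stood beside increases in others. By TPM the most abundant member was Hsp90ab1, at 2029 ± 71.8 TPM in Prdm16 libraries and 1561 ± 17.6 TPM in puro libraries. Next came Hspa8 at 1025 ± 32.3 TPM in Prdm16 libraries and 892 ± 23.1 TPM in puro libraries (SD, n = 3 each).

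**Figure D1:**
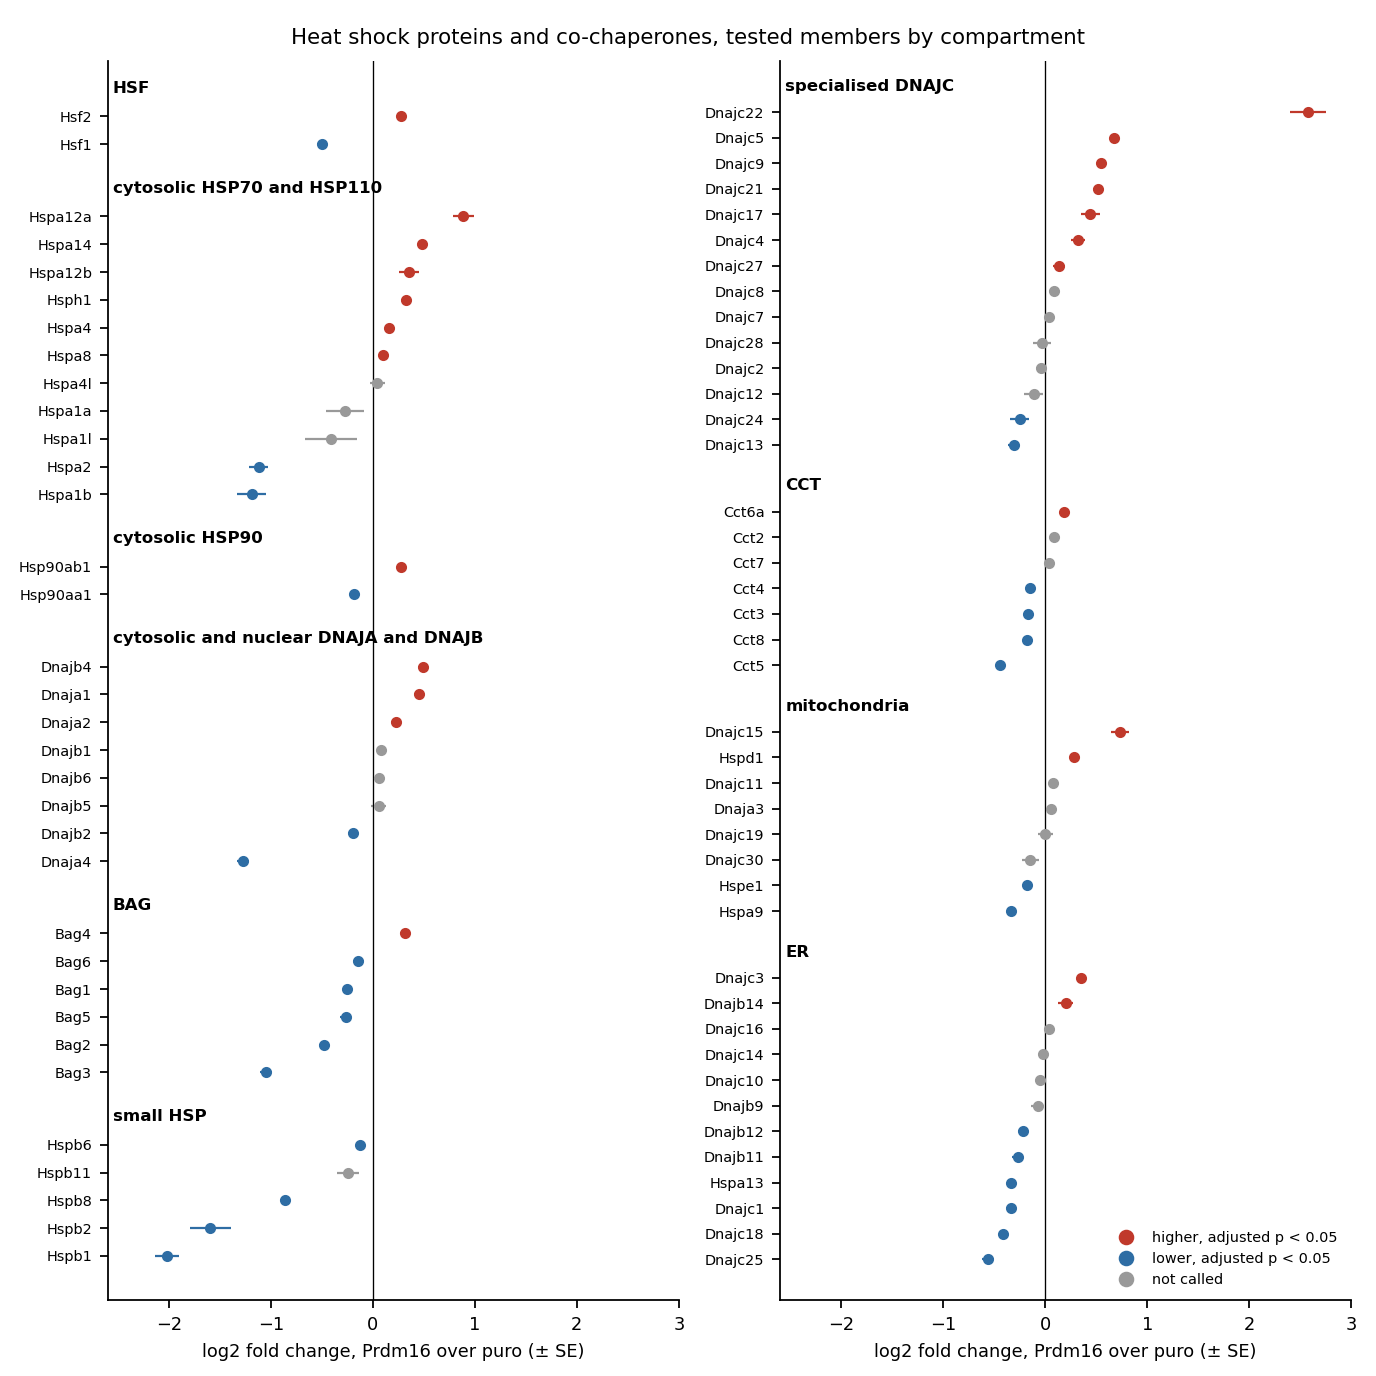
Log2 fold change (Prdm16 over puro, horizontal axis) with its SE for the 75 tested members, grouped by role and compartment; red points rose, blue points fell and grey points were not called. Most points lie within 1 of 0, and the small heat shock proteins and BAG genes lie mostly to the left.

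The 2 heat shock factors were called in opposite directions. Hsf1, the main activator of inducible chaperone genes, had 63.2, 59.2 and 60.8 CPM in the Prdm16 libraries, against 83.4, 84.1 and 91.3 CPM in the puro libraries (log2 fold change −0.50 ± 0.05 SE, adjusted p = 2.06e-06). Hsf2, a related factor that can form mixed trimers with HSF1, had 63.6, 66.8 and 66.4 CPM in the Prdm16 libraries, against 56.1, 54.98 and 51.1 CPM in the puro libraries (log2 fold change 0.28 ± 0.04 SE, adjusted p = 0.000157). For each gene the 3 libraries of one group lay apart from all 3 of the other. Hsf1 lies on chromosome 15, where the median tested gene had a log2 fold change of −0.38, and with the median of each chromosome removed its value was −0.12 (adjusted p = 0.0403).

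Of 11 cytosolic HSP70 and HSP110 genes 6 rose (54.5%, beside 37.5% of all genes), 2 fell (18.2%, beside 38.0%) and 3 were not called. The 2 that fell, Hspa1b and Hspa2, changed more than any that rose. Hspa1b, the stress-inducible HSP70, had 12.7, 9.33 and 13.2 CPM in the Prdm16 libraries, against 22.5, 25.7 and 32.4 CPM in the puro libraries, a level 2.28-fold lower (log2 fold change −1.19 ± 0.14 SE, adjusted p = 1.8e-05). The puro libraries were also the more scattered, and the lowest of them was above the highest Prdm16 library. Its neighbour Hspa1a had 8.18, 5.87 and 7.10 CPM in the Prdm16 libraries, against 7.03, 7.14 and 11.5 CPM in the puro libraries (log2 fold change −0.27 ± 0.19 SE, adjusted p = 0.206), and the groups overlapped. That value rested on 1 library, since without puro replicate 3 the log2 fold change of Hspa1a was 0.0013. Of the 250 bases before the starts of the 2 genes, 247 are the same. The transcripts share 58.8% of the 50-base windows of Hspa1a and 62.3% of those of Hspa1b, so the division of reads between them is uncertain. Summed, they had 20.8, 15.2 and 20.3 CPM in Prdm16 libraries, against 29.5, 32.8 and 43.9 CPM in puro libraries (log2 fold change −0.91 ± 0.15 SE, adjusted p = 0.000172). The sum thus also fell, with no overlap between the groups.

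Hspa2, an HSP70 best known from sperm development, had 9.94, 8.70 and 9.65 CPM in the Prdm16 libraries, against 18.9, 19.4 and 23.4 CPM in the puro libraries (log2 fold change −1.12 ± 0.09 SE, adjusted p = 7.95e-07), without overlap. The constitutive Hspa8, whose product HSC70 does most of the everyday work of the family, had 1088, 1122 and 1118 CPM in the Prdm16 libraries, against 1061, 1028 and 1013 CPM in the puro libraries, a rise of 1.07 times (log2 fold change 0.10 ± 0.03 SE, adjusted p = 0.0179). The difference was small, and its call was lost without puro replicate 2 (adjusted p = 0.0736). Its value was 0.21 (adjusted p = 0.00018) with chromosome medians removed.

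The HSP110 nucleotide exchange factors rose or were not called. Hsph1, the heat-inducible one, had 116, 130.4 and 126 CPM in the Prdm16 libraries, against 102, 98.04 and 97.1 CPM in the puro libraries (log2 fold change 0.33 ± 0.05 SE, adjusted p = 8.25e-05), and the groups did not overlap. With chromosome medians removed its log2 fold change was 0.15 (adjusted p = 0.0167). Hspa4 rose by 0.16 ± 0.04 (log2 ± SE, adjusted p = 0.0052), while the related Hspa4l, at 0.04 ± 0.07, was not called. Of the more distant relatives, Hspa14, which works with a DNAJ partner on the ribosome, had 99.1, 106 and 104 CPM in the Prdm16 libraries, against 73.4, 73.9 and 74.3 CPM in the puro libraries (log2 fold change 0.48 ± 0.04 SE, adjusted p = 7.04e-07). Hspa12a, an atypical HSP70, had 6.70, 7.18 and 6.35 CPM in the Prdm16 libraries, against 3.68, 3.90 and 3.34 CPM in the puro libraries (log2 fold change 0.89 ± 0.10 SE, adjusted p = 1.16e-05). These groups were well apart, though Hspa12a lies on chromosome 19, where the median log2 fold change was 0.39, and its value with chromosome medians removed was 0.50 (adjusted p = 0.00106). Hspa12b rose by 0.35 ± 0.10 (adjusted p = 0.00683), and Hspa1l, at −0.41 ± 0.26, was not called.

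Hsp90ab1 rose and Hsp90aa1 fell, both without overlap between groups. Hsp90ab1, the constitutive cytosolic HSP90, had 1499.7, 1558 and 1536 CPM in the Prdm16 libraries, against 1273, 1254 and 1259 CPM in the puro libraries (log2 fold change 0.28 ± 0.03 SE, adjusted p = 1.35e-05). Hsp90aa1, the more stress-inducible isoform, had 309, 316 and 321 CPM in the Prdm16 libraries, against 371, 354 and 352 CPM in the puro libraries (log2 fold change −0.19 ± 0.03 SE, adjusted p = 0.000499). The balance of the isoforms was therefore shifted in every library, with 6.35, 6.46 and 6.28 TPM of Hsp90ab1 per TPM of Hsp90aa1 in Prdm16 libraries, against 4.4995, 4.64 and 4.69 in puro libraries. With chromosome medians removed, Hsp90aa1 stood at −0.11 (adjusted p = 0.0115) and Hsp90ab1 at 0.23.

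**Figure D2:**
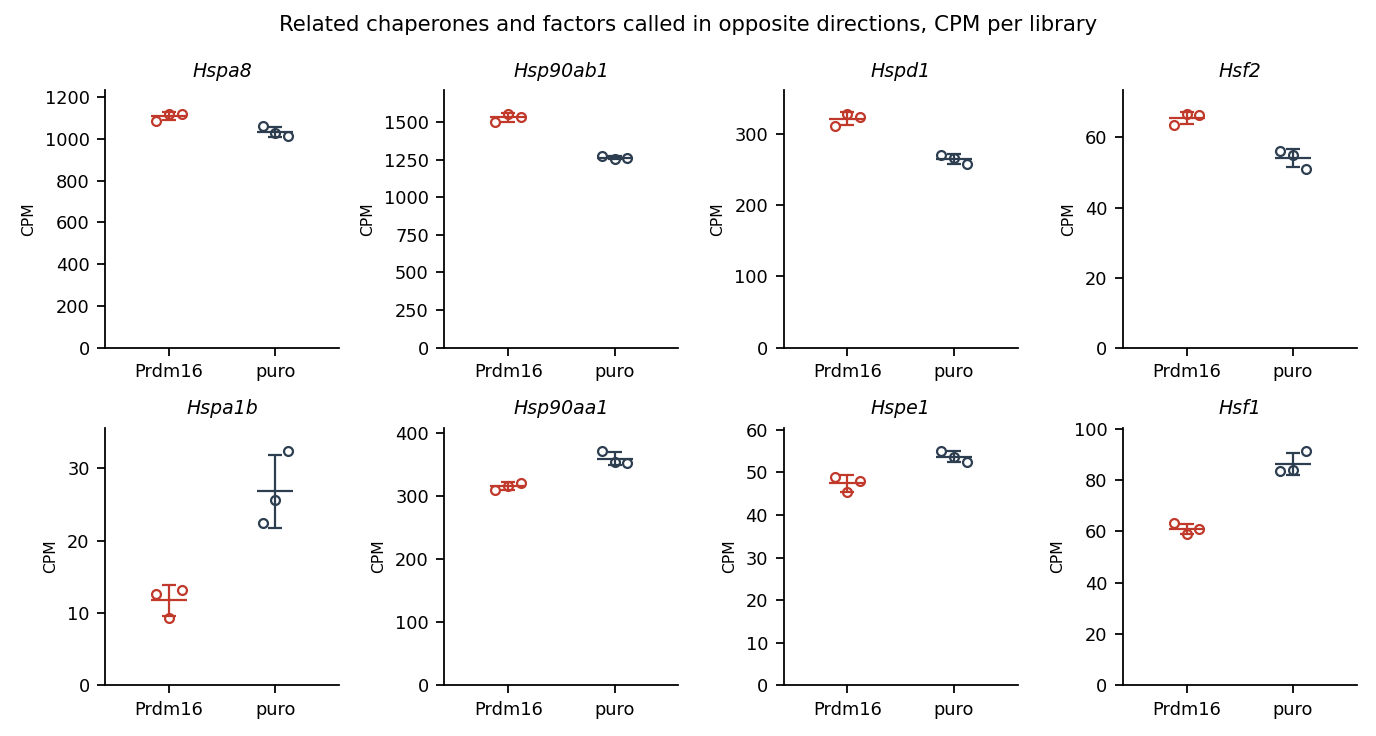
CPM in each library (points) with the mean and SD (lines) for 4 pairs of related genes, Prdm16 left and puro right in each panel; the axes start at 0 and differ between panels. The upper gene of each pair rose and the lower one fell, with the smallest difference in Hspa8.

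The small heat shock proteins, ATP-independent holders of unfolded clients, had 0 of 5 tested members higher, 4 lower (80%, beside 38.0% of all genes) and 1 not called. Their median log2 fold change was −0.86, beside −0.01 over all genes. Their summed level was 153 to 166 CPM in Prdm16 libraries and 237 to 252 CPM in puro libraries. Hspb1, called HSP25 in the mouse and known for binding actin filaments, had 3.47, 2.66 and 3.65 CPM in the Prdm16 libraries, against 12.8, 12.3 and 14.8 CPM in the puro libraries, a level 4.05-fold lower (log2 fold change −2.02 ± 0.12 SE, adjusted p = 4.44e-08). It was the member with the largest decrease, and no Prdm16 library came near a puro library. Hspb8, which pairs with BAG3 in clearing damaged filaments, had 83.2, 75.8 and 83.1 CPM in the Prdm16 libraries, against 145, 144 and 151 CPM in the puro libraries (log2 fold change −0.86 ± 0.05 SE, adjusted p = 1.76e-08). Again the groups lay apart.

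Hspb2, a muscle-enriched member, had 0.511, 0.449 and 0.689 CPM in the Prdm16 libraries, against 1.55, 1.69 and 1.79 CPM in the puro libraries (log2 fold change −1.59 ± 0.20 SE, adjusted p = 2.52e-05), at low level but without overlap. Its exons overlap those of Cryab, its head-to-head neighbour and another small heat shock protein, which averaged 10.6 ± 0.765 CPM in Prdm16 libraries and 63.3 ± 3.23 CPM in puro libraries (SD, n = 3 each). Cryab fell as well (log2 fold change −2.58 ± 0.06 SE, adjusted p = 2.94e-11), and since it is not known here whether counting used strand, reads of this pair may be mixed. Hspb6 fell by only 0.12 on the log2 scale (adjusted p = 0.0148), a call lost with DESeq2, with no filter on low counts, with chromosome medians removed and without Prdm16 replicate 3. Hspb11, now known as an intraflagellar transport protein, was at −0.24 ± 0.10 (adjusted p = 0.0526), and was called in 6 alternatives, namely upper-quartile scaling, no filter on low counts, DESeq2, the replicate block, and the fits without Prdm16 replicate 1 and without puro replicate 2.

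Of the 6 BAG genes, most of whose products make HSP70 release its clients, 5 fell and 1 rose. The shares were 83.3% lower, beside 38.0% of all genes, and 16.7% higher, beside 37.5% of all genes. Bag3, a partner of small heat shock proteins in selective autophagy and an HSF1 target, had 24.6, 23.5 and 21.9 CPM in the Prdm16 libraries, against 46.5, 46.6 and 51.5 CPM in the puro libraries (log2 fold change −1.05 ± 0.06 SE, adjusted p = 3.04e-08). Bag2, an inhibitor of the ubiquitin ligase CHIP, had 28.1, 26.9 and 27.9 CPM in the Prdm16 libraries, against 39.8, 38.1 and 37.9 CPM in the puro libraries (log2 fold change −0.48 ± 0.05 SE, adjusted p = 2.56e-06). In both, all Prdm16 libraries were below all puro libraries. Bag1 fell by 0.25 on the log2 scale, Bag5 by 0.27 and Bag6 by 0.14, and only the groups of Bag6 overlapped. The call of Bag6 (adjusted p = 0.028) was lost without Prdm16 replicate 2, without Prdm16 replicate 3 and without puro replicate 3, and its log2 fold change ran from −0.18 to −0.09 over the alternatives other than chromosome medians. Bag4 rose by 0.32 ± 0.05 (adjusted p = 7.05e-05), with 0.19 after chromosome medians were removed.

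**Figure D3:**
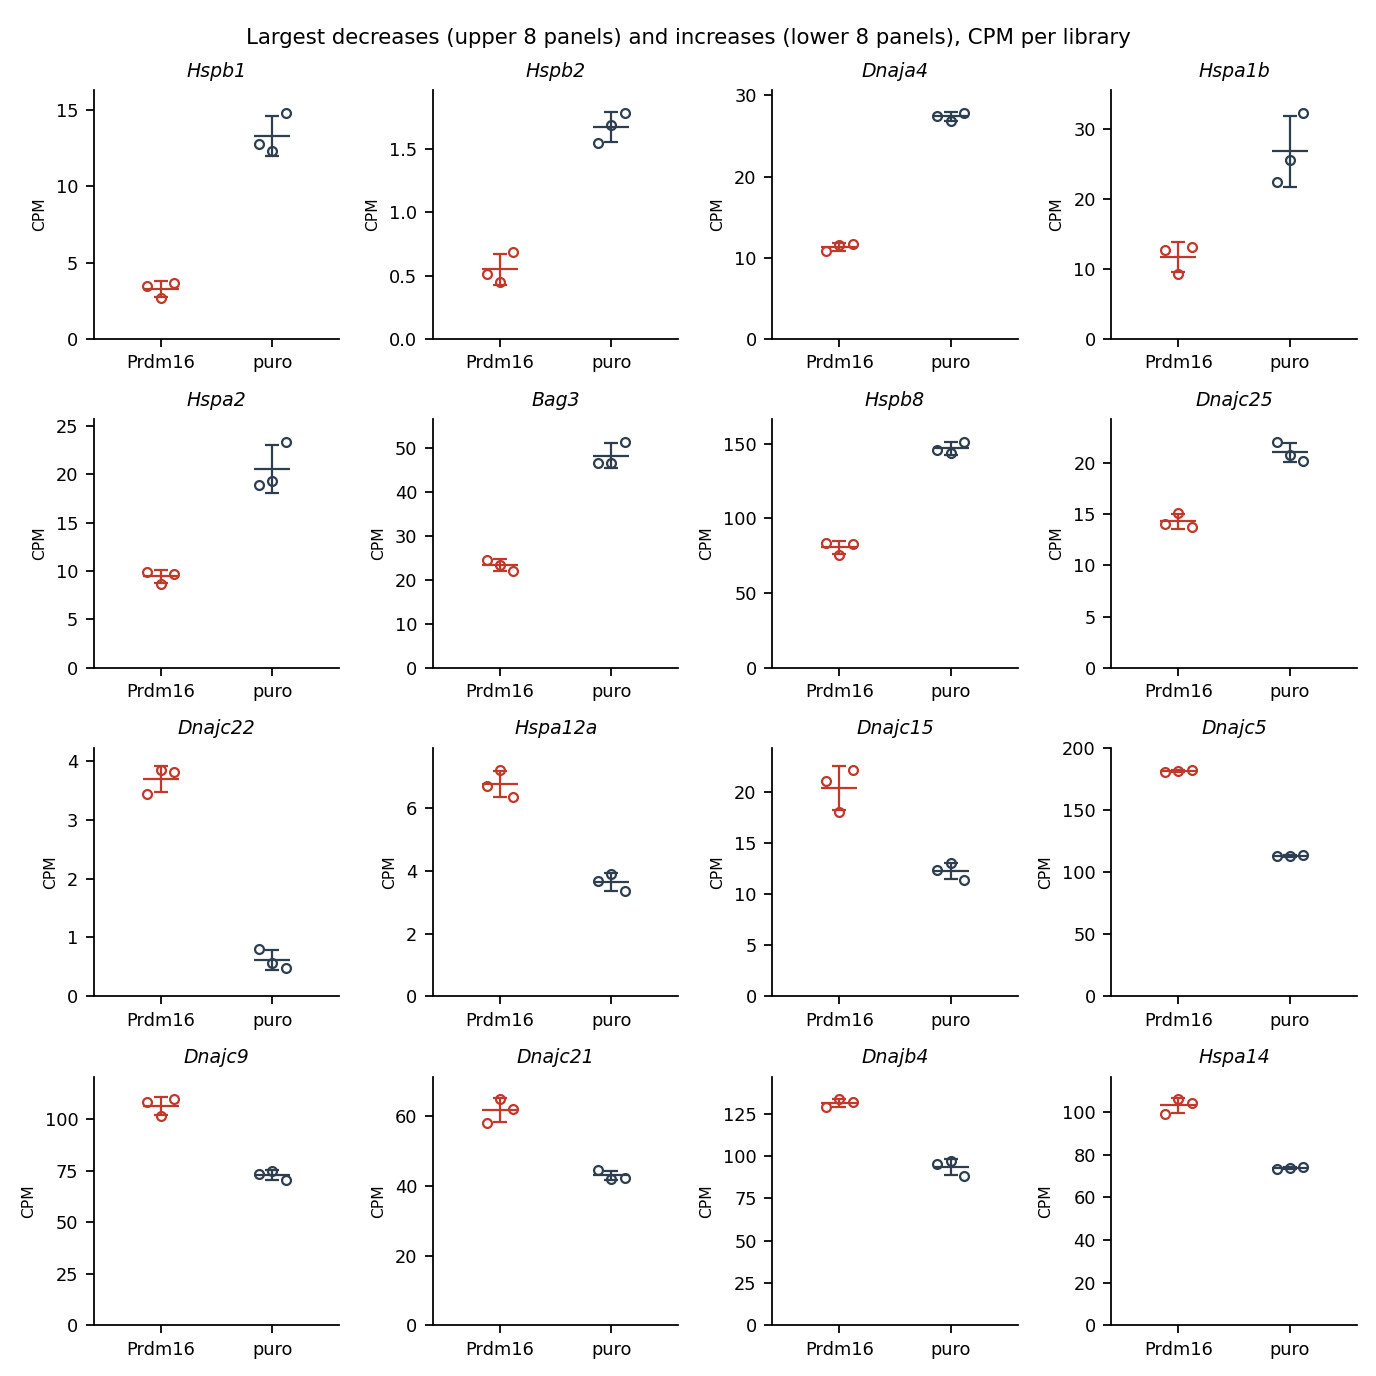
CPM in each library (points) with the mean and SD (lines) for the 8 members with the largest decreases (upper panels) and the 8 with the largest increases (lower panels), Prdm16 left and puro right in each panel; the axes start at 0 and differ between panels. In every panel the 3 libraries of one group lie apart from the 3 of the other.

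Among the general DNAJA and DNAJB co-chaperones of cytosol and nucleus, 3 of 8 tested rose, 2 fell and 3 were not called. These were 37.5% higher and 25% lower, beside 37.5% and 38.0% of all genes. Dnaja4, a DNAJA protein enriched in muscle and testis, had 10.8, 11.5 and 11.7 CPM in the Prdm16 libraries, against 27.5, 26.9 and 27.9 CPM in the puro libraries, a level 2.42-fold lower (log2 fold change −1.28 ± 0.06 SE, adjusted p = 4.03e-09). This was the largest change in its class, and its exons overlap those of Wdr61 on the other strand. Dnajb4 had 129, 134 and 132 CPM in the Prdm16 libraries, against 95.7, 97.4 and 88.2 CPM in the puro libraries (log2 fold change 0.49 ± 0.04 SE, adjusted p = 1.58e-06). Dnaja1, a main partner of HSC70, had 191, 193 and 199 CPM in the Prdm16 libraries, against 150.00, 142 and 136 CPM in the puro libraries (log2 fold change 0.45 ± 0.04 SE, adjusted p = 2.36e-06). Both rose without overlap, in contrast to their relative Dnaja4. Dnaja2 rose by 0.23 ± 0.04, but at 0.10 (adjusted p = 0.055) was not called with chromosome medians removed, and Dnajb2 fell by 0.20 on the log2 scale.

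Dnajb1, the classical heat-inducible HSP40, had 77.9, 72.4 and 73.8 CPM in the Prdm16 libraries, against 69.3, 69.1 and 73.2 CPM in the puro libraries (log2 fold change 0.08 ± 0.04 SE, adjusted p = 0.1), and the groups overlapped. It was called only without puro replicate 3 among the alternatives run. Dnajb6, a suppressor of protein aggregation whose promoter holds a run of 3 cores, was at 0.06 ± 0.05 and Dnajb5 at 0.06 ± 0.07, neither of them called.

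The DNAJC proteins not placed in the mitochondrial or ER group lend a J domain to many separate tasks. Of 14 tested, 7 were higher (50%, beside 37.5% of all genes), 2 lower (14.3%, beside 38.0%) and 5 not called. Dnajc22, whose Drosophila homologue acts in endocytosis, had 3.44, 3.83 and 3.80 CPM in the Prdm16 libraries, against 0.806, 0.573 and 0.477 CPM in the puro libraries, a level 5.97-fold higher (log2 fold change 2.58 ± 0.18 SE, adjusted p = 1.64e-07). This was the largest change among the members, at a low level, and it lies on chromosome 15, whose median gene was lower. Dnajc5, the cysteine string protein of secretory vesicles, had 181, 181 and 182 CPM in the Prdm16 libraries, against 113, 113 and 114 CPM in the puro libraries (log2 fold change 0.68 ± 0.03 SE, adjusted p = 7.2e-09). The replicates of each group scattered very little, and the groups lay far apart. Dnajc21, which acts in ribosome assembly, had 58.1, 64.9 and 62.1 CPM in the Prdm16 libraries, against 44.6, 42.1 and 42.3 CPM in the puro libraries (log2 fold change 0.52 ± 0.05 SE, adjusted p = 2.1e-06), and 0.90 with chromosome medians removed. Dnajc9, a histone chaperone, had 108, 101 and 109.8 CPM in the Prdm16 libraries, against 73.3, 75.1 and 70.4 CPM in the puro libraries (log2 fold change 0.55 ± 0.04 SE, adjusted p = 6.11e-07). Dnajc9 lies on chromosome 14, where the median log2 fold change was 0.49, and its call was lost with chromosome medians removed (0.06, adjusted p = 0.228); the cell cycle markers rose in the same libraries, and their part in it was not tested.

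Dnajc17, a nuclear member, rose by 0.44 ± 0.10 (adjusted p = 0.00136). Dnajc4, at 0.32 ± 0.07, also rose, but on chromosome 19, and stood at −0.06 (adjusted p = 0.437) once chromosome medians were removed. Dnajc13, an endosomal protein, fell by 0.31 on the log2 scale (adjusted p = 0.00037), and by 0.20 with chromosome medians removed. Dnajc24, an enzyme partner in making diphthamide, had an adjusted p of 0.0336 for a decrease of 0.25, and Dnajc27, a Rab-like GTPase with a J domain, one of 0.046 for an increase of 0.14. The call of Dnajc24 was lost with DESeq2, without Prdm16 replicate 2, without puro replicate 2 and without puro replicate 3, and that of Dnajc27 without any 1 of the 6 libraries and with DESeq2, upper-quartile scaling, the 1 CPM filter and the replicate block. Dnajc27 was at 0.21 (adjusted p = 0.00614) with chromosome medians removed. The members not called were Dnajc8 (0.09), Dnajc7 (0.03), Dnajc28 (−0.04), Dnajc2 (−0.04) and Dnajc12 (−0.11), as log2 fold changes.

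The CCT chaperonin is a ring of 8 different subunits, of which 7 carry a symbol covered by the rule and the eighth is Tcp1. Among the 7, 1 rose (14.3%, beside 37.5% of all genes), 4 fell (57.1%, beside 38.0%) and 2 were not called. Cct5 had 299.6, 302 and 311 CPM in the Prdm16 libraries, against 418, 422 and 404 CPM in the puro libraries (log2 fold change −0.45 ± 0.03 SE, adjusted p = 3.24e-07). Cct8 had 270.1, 276 and 276 CPM in the Prdm16 libraries, against 314, 314 and 307 CPM in the puro libraries (log2 fold change −0.18 ± 0.03 SE, adjusted p = 0.000281). Cct3 had 249, 258 and 257 CPM in the Prdm16 libraries, against 289.9, 289.6 and 279 CPM in the puro libraries (log2 fold change −0.17 ± 0.03 SE, adjusted p = 0.000867). All 3 were lower in each Prdm16 library than in any puro library. Cct4 fell by 0.15 on the log2 scale (adjusted p = 0.00233), and Cct6a had 280.4, 278 and 282 CPM in the Prdm16 libraries, against 247, 245 and 247 CPM in the puro libraries (log2 fold change 0.19 ± 0.03 SE, adjusted p = 0.000199), the reverse direction. Cct2, at 0.08 ± 0.04 (adjusted p = 0.0687), was called without Prdm16 replicate 1 and with no filter on low counts, and Cct7, at 0.04 ± 0.03, was not called. Tcp1 rose, with a mean of 398 ± 8.67 CPM in Prdm16 libraries and 349.8 ± 8.21 CPM in puro libraries (SD, n = 3 each) and an adjusted p of 0.000415.

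These subunits sit on chromosomes whose medians differed. With chromosome medians removed, only 2 of the 7 were called, in place of 5, as Cct5 stood at −0.07, Cct8 at −0.03, Cct3 at 0.03 and Cct6a at 0.01, while Cct4 fell by 0.10 and Cct2 rose by 0.12 on the log2 scale. Over the 8 subunits the coefficient of variation of TPM was 41.7%, 41.3% and 42.4% in Prdm16 libraries. In puro libraries it was 49.7%, 50.6% and 48.6%, so it was lower in each Prdm16 library than in any puro library. TPM used the joined exons of each gene, 6778 bases for Cct7 and 2557 for Cct2. Cct7 and Cct2 averaged 291 and 292 CPM but 170 and 454 TPM in Prdm16 libraries. The size of the coefficient therefore depends on these lengths and does not measure how unequal the transcripts are.

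**Figure D4:**
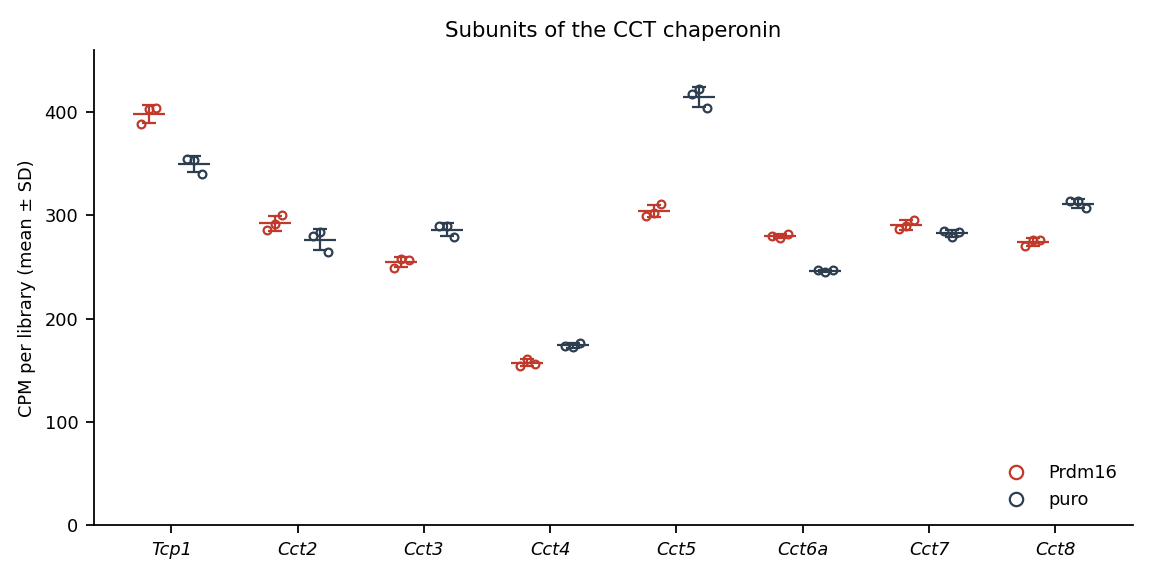
CPM in each library (points) with the mean and SD (lines) for the 8 subunits of the CCT chaperonin, Prdm16 left and puro right for each subunit; CPM is not corrected for transcript length, so subunits are to be compared between groups. Cct5 shows the widest gap between the groups, with Prdm16 libraries lower, and Tcp1 and Cct6a are higher in Prdm16 libraries.

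In the group placed in mitochondria, 2 of 8 members rose, 2 fell and 4 were not called. Each direction held 25%, beside 37.5% of all genes that rose and 38.0% that fell. Hspd1, the HSP60 chaperonin of the matrix, had 312, 328 and 324 CPM in the Prdm16 libraries, against 271, 266 and 257 CPM in the puro libraries (log2 fold change 0.28 ± 0.04 SE, adjusted p = 2.76e-05). Hspe1, the HSP10 lid that closes the HSP60 cage, had 49.02, 45.3 and 47.96 CPM in the Prdm16 libraries, against 54.99, 53.5 and 52.5 CPM in the puro libraries (log2 fold change −0.18 ± 0.04 SE, adjusted p = 0.00302). They thus went in opposite directions although the Hspd1 start used here and the Hspe1 start share the stretch printed above. Neither pair of groups overlapped. The ratio of Hspd1 to Hspe1 was 3.55, 4.05 and 3.77 in Prdm16 libraries and 2.75, 2.77 and 2.73 in puro libraries, in TPM. Some annotated exons of these neighbours overlap on opposite strands, so reads there cannot be assigned with certainty.

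Hspa9, the HSP70 of the matrix known as mortalin, had 380.02, 411 and 404 CPM in the Prdm16 libraries, against 511, 502 and 491 CPM in the puro libraries (log2 fold change −0.33 ± 0.04 SE, adjusted p = 1.1e-05). The groups did not overlap, but on chromosome 18 the median log2 fold change was −0.41, and with chromosome medians removed Hspa9 was at 0.08 (adjusted p = 0.0807). Dnajc15, a J protein of the import motor, had 21.02, 17.997 and 22.1 CPM in the Prdm16 libraries, against 12.4, 13.01 and 11.4 CPM in the puro libraries (log2 fold change 0.73 ± 0.09 SE, adjusted p = 1.29e-05). It lies on chromosome 14 and kept a value of 0.25 (adjusted p = 0.0221) with chromosome medians removed. Dnaja3, the main J partner of HSPA9, was not called at 0.06 ± 0.04 (adjusted p = 0.23), nor were Dnajc11 (0.07), Dnajc19 (0.00) and Dnajc30 (−0.15). With chromosome medians removed these last 4 were called, Dnaja3 at 0.22, Dnajc11 at 0.11, Dnajc19 at 0.20 and Dnajc30 at −0.33, which brought the count in mitochondria to 7 of 8.

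In the ER, 2 of 12 members rose (16.7%, beside 37.5% of all genes), 6 fell (50%, beside 38.0%) and 4 were not called. Dnajc25, a membrane J protein, had 14.1, 15.1 and 13.7 CPM in the Prdm16 libraries, against 22.1, 20.8 and 20.3 CPM in the puro libraries (log2 fold change −0.56 ± 0.06 SE, adjusted p = 1.02e-05). Dnajc18 had 54.5, 55.5 and 53.6 CPM in the Prdm16 libraries, against 70.7, 74.1 and 73.4 CPM in the puro libraries (log2 fold change −0.42 ± 0.04 SE, adjusted p = 1.53e-06). Both were lower in every Prdm16 library, but Dnajc18, like Hspa9, is on chromosome 18 and stood at −0.01 with chromosome medians removed (adjusted p = 0.902). Dnajc3, an inhibitor of the kinase PERK, had 174, 181 and 179.6 CPM in the Prdm16 libraries, against 141, 143 and 137 CPM in the puro libraries (log2 fold change 0.35 ± 0.04 SE, adjusted p = 4.51e-06). It lies on chromosome 14, and its direction turned with chromosome medians removed (−0.14, adjusted p = 0.00435), the only called member to pass the threshold with the opposite sign.

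Dnajc1, an early described ER partner of BiP, fell by 0.34 on the log2 scale and Hspa13, an HSP70 relative, by 0.33, with −0.18 for Hspa13 once chromosome medians were removed. Dnajb12, which hands membrane proteins to degradation, fell by 0.22. Dnajb11, a soluble BiP partner, fell by 0.27 and was at −0.11 (adjusted p = 0.065) with chromosome medians removed. Dnajb14, related to Dnajb12, rose by 0.20 ± 0.07 (adjusted p = 0.0261), a call lost with DESeq2 (adjusted p = 0.0515), without Prdm16 replicate 1, without Prdm16 replicate 2 and without puro replicate 3. Dnajb14 was at 0.40 (adjusted p = 0.000457) with chromosome medians removed. Dnajb9 (−0.07), an inducible BiP partner of the unfolded protein response, and Dnajc10 (−0.05), a disulphide reductase, were not called, and neither were Dnajc14 (−0.03) and Dnajc16 (0.03). BiP itself, Hspa5, fell by 0.27 (adjusted p = 1.29e-05), and Hsp90b1 was at 0.04 ± 0.03 and not called, but was called at 0.08 (adjusted p = 0.0461) with chromosome medians removed.

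**Figure D5:**
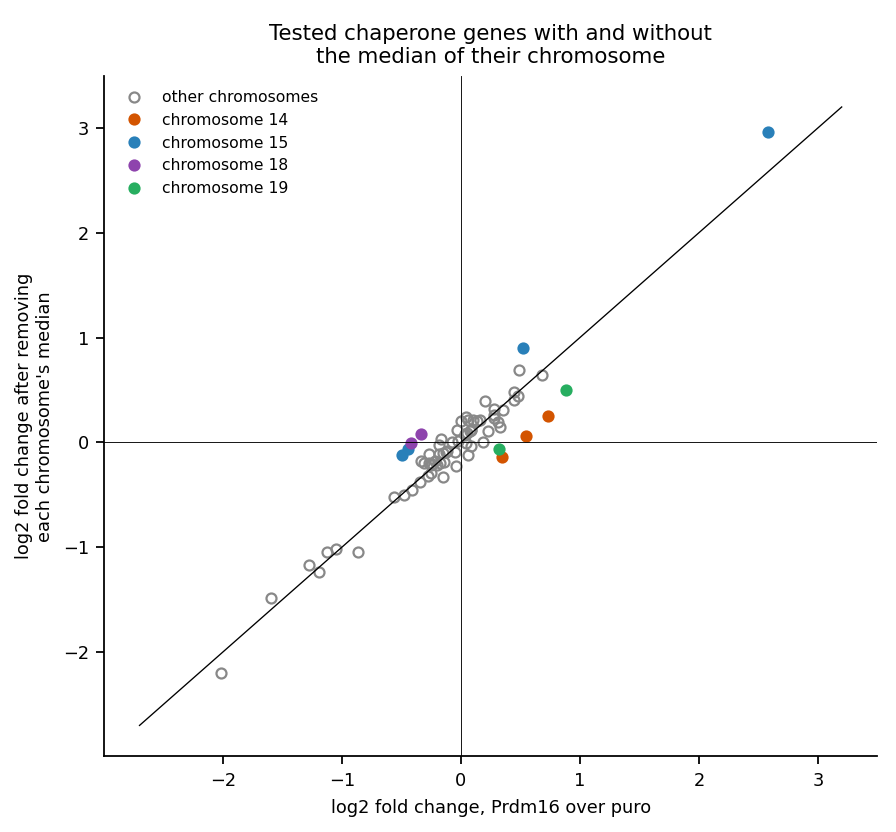
Log2 fold change (Prdm16 over puro) of the 75 tested members as fitted (horizontal axis) and after the median of each gene's chromosome was removed (vertical axis); filled points are genes of chromosomes 14, 15, 18 and 19, and the line marks equal values. The filled points lie farthest from the line, while the members with the largest decreases stay close to it.

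Chromosome medians of log2 fold change ran from −0.41 on chromosome 18 and −0.38 on chromosome 15 to 0.39 on chromosome 19 and 0.49 on chromosome 14, and between −0.20 and 0.18 on the others. With them removed 50 of the 75 tested members were called, beside 10059 of 13805 genes in all. Of these 50, 41 kept the direction given above, 8 were gained and 1 turned, while 11 calls were lost. Beside the 4 mitochondrial genes and Cct2 given above, the gains were Hspa4l (0.24), Dnajc8 (0.12) and Dnajc2 (−0.22). Hspb1, Dnaja4, Hspa1b, Hspa2, Bag3, Hspb8 and Dnajc22 were among those that held, at −2.20, −1.17, −1.23, −1.05, −1.02, −1.04 and 2.96.

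Genes that work with these families but fall outside the naming rule were taken from a list of 49 genes in the table. Of its 48 tested genes 21 rose (43.8%, beside 37.5% of all genes), 15 fell (31.2%, beside 38% of all genes) and 12 were not called. In all 75% were called, beside 75.6% of all genes, so the list lay near the background. Its median log2 fold change was 0.10, beside −0.01 over all genes. The same background holds for the smaller lists below. Among 15 HSP90 co-chaperones 8 rose and 3 fell. Stip1, the adaptor that passes clients from HSP70 to HSP90, had 414, 436 and 439 CPM in the Prdm16 libraries, against 267, 268 and 254 CPM in the puro libraries (log2 fold change 0.71 ± 0.04 SE, adjusted p = 1.75e-08). Fkbp4, a steroid receptor immunophilin, had 214, 207 and 210.2 CPM in the Prdm16 libraries, against 121, 123 and 125 CPM in the puro libraries (log2 fold change 0.77 ± 0.03 SE, adjusted p = 3.07e-09). Both rose with wide gaps between the groups, and Sugt1 rose by 0.61 ± 0.04. With chromosome medians removed Stip1, on chromosome 19, was at 0.32 and Sugt1, on chromosome 14, at 0.12 (adjusted p = 0.0319), while Fkbp4 was at 0.73.

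Among 11 HSP70 partners 5 rose and 5 fell. Sil1, the exchange factor of BiP, had 33.3, 30.2 and 31.4 CPM in the Prdm16 libraries, against 67.4, 65.3 and 68.1 CPM in the puro libraries (log2 fold change −1.08 ± 0.05 SE, adjusted p = 2.42e-09). St13, the HIP protein that stabilises client-bound HSP70, had 249, 256 and 259.6 CPM in the Prdm16 libraries, against 439, 421 and 417 CPM in the puro libraries (log2 fold change −0.74 ± 0.03 SE, adjusted p = 5.52e-09). Both fell without overlap, and Hscb, the J protein of iron-sulphur cluster assembly, fell by 0.64. Sil1, on chromosome 18, was at −0.67 and St13, on chromosome 15, at −0.36 with chromosome medians removed. Of 10 prefoldin and CCT partners 4 rose and 3 fell, with Pfdn5 at −0.72 ± 0.05, Vbp1 at 0.35 ± 0.04 and Pdcl at 0.30 ± 0.04. Pfdn5, also on chromosome 15, was at −0.34 with chromosome medians removed. Of 7 mitochondrial chaperones and proteases 4 rose and 1 fell, with the mitochondrial HSP90 Trap1 at 0.39 ± 0.04, Clpb at 0.29 ± 0.04 and Clpx at 0.22 ± 0.04. Of 5 other tested heat shock genes 3 fell and none rose, namely Cryab as given above, the collagen chaperone Serpinh1 (−0.76 ± 0.08) and the haem-degrading Hmox1 (−0.27 ± 0.05).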

How the data were processed

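RNA was sequenced from 3 Prdm16 and 3 puro libraries, extracted with Trizol and a PureLink kit and prepared with a TruSeq kit, per the labels' protocols. The authors deposited whole-number counts per gene symbol; STAR, featureCounts, Subread and mm9 are named in the submitters' processing notes, with no versions, and settings for strand and for reads with several matches are not given in those notes.

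Counts were tested with edgeR 4.0.16 in R 4.3.3 (filterByExpr, TMM, quasi-likelihood test, 13805 genes kept, Benjamini-Hochberg, threshold 0.05), and the procedure was tested on simulated data. CPM used TMM library sizes. TPM used the joined length of all annotated exons of a gene (GENCODE, GRCm38, another build), matched by symbol. Alternatives were DESeq2 1.42.0, limma-voom (limma 3.58.1), other scalings and filters, a stricter threshold, the Prdm16 counts left out, a replicate block, each library left out, and chromosome medians removed. The sum of Hspa1a and Hspa1b was tested by putting 1 summed row in place of both in the same fit. The floor of 3 counts covers counting error only.

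Members and lists were chosen with earlier results of these data known. Genes named were fixed core chaperones, the 8 largest changes each way, the 2 smallest p per compartment and the 3 smallest per partner list; other members are named to account for them. Exons of 32 members overlap those of another annotated gene. Paralogs and pseudogenes can share reads.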

Additional observations from a re-analysis of the deposited data

How the results depend on the processing

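The counts of members called were 47 at an adjusted p under 0.01, 50 with DESeq2 and 52 with at least 1 CPM in 3 libraries. They were 53 with limma-voom and 55 with no filter on low counts, beside 53 as reported. Over all genes the counts in the same order were 9192 of 13805, 9839 of 13805, 9735 of 12722, 10412 of 13805 and 11149 of 18578. As reported it was 10430 of 13805. When 1 library was left out, 49 to 53 members and 9884 to 10444 genes in all were called. The labels give no meaning to replicate numbers, and same-numbered libraries deviated with correlations of −0.16, 0.10 and −0.07. With 3 libraries in each group these values cannot show whether same-numbered libraries were prepared together. With a replicate block 52 members (22 higher and 30 lower) and 10089 of 13805 genes in all were called, and Hspa8 was not (adjusted p = 0.0685). Not every library correlated best with its own number, since Prdm16 replicate 1 had −0.16 with puro replicate 1 and 0.25 with puro replicate 3.

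Removing chromosome medians left 10059 of 13805 genes in all called. It moved 2 counts by over 1.5 times: CCT to 2 called and mitochondria to 7 called. It also turned the sign of Cct3 (0.0306), Cct7 (−0.0031), Dnajb1 (−0.0381), Dnajb6 (−0.1225), Dnajc14 (0.0113), Dnajc28 (0.1195), Dnajc3 (−0.1395), Dnajc4 (−0.0646) and Hspa9 (0.0791). Dnajc19, near 0, turned to −0.016 with upper-quartile scaling, −0.0039 with the 1 CPM filter and −0.0014 with the replicate block, and ranged from −0.0433 to 0.0664 over the libraries left out. The same range was −0.1204 to 0.0364 for Dnajc28, −0.3943 to 0.0013 for Hspa1a and −0.0247 to 0.1238 for Hspa4l. The cause was not tested. Depth limits mainly the low members, such as Hspb2 and Dnajc22, whose lower group averaged under 1 CPM.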
